A study of Mus musculus with 12 samples.

Results

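The 10 genes described here are members of the tumor necrosis factor (TNF) superfamily that were listed by symbol. They comprise 6 ligands, Tnfsf8, Tnfsf9, Tnfsf10, Tnfsf12, Tnfsf13 and Tnfsf13b, and 4 receptors, Fas, Tnfrsf1a, Tnfrsf1b and Tnfrsf14. Each symbol matched 1 of the 56748 genes of the count matrix, and all 10 passed the filter on low counts that left 15033 genes for testing. Bulk RNA was sequenced from bone marrow-derived macrophages (BMDM) of female C57BL/6J mice, grown with macrophage colony-stimulating factor at 20 ng/mL and polarized to an M2-like state with 10 ng/mL IL-4 for 48 hours. All cells then spent 72 hours in one of 4 media, with 3 libraries for each. The untreated control received unsupplemented medium, and rIFNβ denotes recombinant interferon beta at 1500 pg/mL. The 2 supernatant conditions received medium conditioned by YUMM5.2 mouse melanoma cells, a transduced pool sorted for eGFP and carrying either Ifnb1 with eGFP or eGFP alone behind a tetracycline response promoter, both kept with 1 µg/mL doxycycline (Dox) for 72 hours. The Ifnb1eGFP supernatant was diluted to 1500 pg/mL of IFNβ and the eGFP supernatant by the same ratio. The design gives 3 mice per condition, and the sources used here do not say whether the same mice served every condition.

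Ligands of the TNF superfamily are mostly trimeric membrane proteins that can be shed, and each binds 1 or a few receptors of the TNF receptor superfamily. Receptors with a death domain, such as Fas and TNF receptor 1, can recruit FADD and caspase-8 and trigger apoptosis. Many of the others bind TRAF adaptor proteins and act mainly through NF-κB and MAP kinases. Macrophages are a source of several of these ligands, and they carry receptors that set their own survival and cytokine output. Promoters of interferon-responsive genes often hold the interferon-stimulated response element (ISRE) or the gamma-activated site (GAS).

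The 250 bases upstream of the RefSeq start are shown for Tnfsf10 and the 4 receptors, because these 5 genes moved with IFNβ and their windows differ in those letters. RefSeq windows (build GRCm38.p6) were found for 8 of the 10 genes, and Tnfsf9 and Tnfsf12 had none. Each line reads 5′ to 3′ on the gene's strand and ends at the base before the start. Capitals mark the ISRE core GAAANNGAAA, on either strand, and the GAS letters TTCNNNGAA, which read the same on both strands.
Tnfsf10 (chr3:27316827-27317076, plus strand): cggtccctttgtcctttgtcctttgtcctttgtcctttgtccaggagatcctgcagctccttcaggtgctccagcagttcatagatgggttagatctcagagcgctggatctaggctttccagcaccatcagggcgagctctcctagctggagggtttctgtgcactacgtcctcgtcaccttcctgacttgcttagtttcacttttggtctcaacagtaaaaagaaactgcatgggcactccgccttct
Fas (chr19:34290409-34290658, plus strand): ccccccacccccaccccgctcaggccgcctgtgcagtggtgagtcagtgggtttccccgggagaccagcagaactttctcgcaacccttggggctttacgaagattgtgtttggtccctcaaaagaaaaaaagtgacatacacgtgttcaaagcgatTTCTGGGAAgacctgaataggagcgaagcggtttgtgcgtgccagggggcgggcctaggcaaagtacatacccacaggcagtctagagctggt
Tnfrsf1a (chr6:125349473-125349722, plus strand): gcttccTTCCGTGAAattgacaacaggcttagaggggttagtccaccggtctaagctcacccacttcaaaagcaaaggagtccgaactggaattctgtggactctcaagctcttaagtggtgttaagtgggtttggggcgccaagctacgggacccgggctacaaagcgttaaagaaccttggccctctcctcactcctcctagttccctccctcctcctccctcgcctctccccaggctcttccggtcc
Tnfrsf1b (chr4:145246871-145247120, minus strand): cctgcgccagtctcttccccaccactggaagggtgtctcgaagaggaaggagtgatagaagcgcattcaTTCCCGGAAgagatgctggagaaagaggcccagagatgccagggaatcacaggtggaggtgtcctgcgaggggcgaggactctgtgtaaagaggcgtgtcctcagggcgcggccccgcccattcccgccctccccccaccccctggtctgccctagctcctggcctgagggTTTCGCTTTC
Tnfrsf14 (chr4:154928078-154928327, minus strand): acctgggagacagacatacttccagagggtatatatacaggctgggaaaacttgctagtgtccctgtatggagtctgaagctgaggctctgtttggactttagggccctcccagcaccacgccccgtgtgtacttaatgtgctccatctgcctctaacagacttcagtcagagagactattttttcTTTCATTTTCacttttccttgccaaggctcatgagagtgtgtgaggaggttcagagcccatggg
The ISRE core was present in the windows of 3 members. It lay on the reverse strand in Tnfrsf1b, from -10 to -1, and in Tnfrsf14, from -64 to -55, and on the gene's strand in the second of 2 start windows of Tnfsf13b, from -16 to -7. The same letters occurred in 2.98% of all 32851 promoter windows of this length. The GAS letters were present in 3 members, Fas from -93 to -85, Tnfrsf1a from -244 to -236 and Tnfrsf1b from -181 to -173, against 7.02% of all windows. The windows shown include a gene that rose with the ISRE core, Tnfrsf14, and a gene that fell with it, Tnfrsf1b. The Tnfsf10 window held neither set of letters in full, and near matches were not searched for in any window. A match of letters is a description of the window and was not tested as a binding site.

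Library totals ranged from 31526034 to 45348457 expected counts. Levels are given as counts scaled to a library total of 1000000 (CPM). The defining macrophage genes Adgre1 (1480 to 1840 CPM) and Csf1r (1020 to 1190 CPM) were high in all 12 libraries, whereas the T cell receptor complex genes Cd3d, Cd3e and Cd3g did not exceed 0.0318 CPM. The summed melanocyte and melanoma list of 5 genes stayed between 0.223 and 0.81 CPM. Of the M2-like markers, Mrc1 was between 609 and 839 CPM and Retnla between 45.4 and 71.3 CPM, whereas Arg1 stayed under 1 CPM. Chil3 was between 63.2 and 81.5 CPM without and 106 and 129 CPM with IFNβ (log2 fold changes of 0.77 and 0.67, adjusted p = 1.73e-05 and 5.55e-05). Several marker lists moved with IFNβ. The 8 macrophage genes summed to between 14300 and 18600 CPM without and 9850 and 10800 CPM with IFNβ, through Lyz2 (8810 to 12800 against 3440 to 4320 CPM) and Itgam (1420 to 1630 against 317 to 426 CPM), while Fcgr1 lay higher (48.8 to 112 against 1110 to 1290 CPM). The summed T cell list was between 3.75 and 5.05 CPM without and 8.09 and 9.96 CPM with IFNβ through Cd4, and the neutrophil list was below 1 CPM with IFNβ through S100a8. At lower levels, the B cell list was between 0.604 and 0.804 CPM without and 1.17 and 1.63 CPM with IFNβ, the dendritic cell list between 1.24 and 1.61 and 0.273 and 0.48 CPM, and the NK cell list between 0.191 and 0.585 and 0 and 0.0758 CPM. The summed fibroblast list overlapped, at 30.5 to 84 CPM without and 50.4 to 79.5 CPM with IFNβ, but with the Ifnb1eGFP supernatant Dcn (3.48-fold) and Pdgfra (3.18-fold) rose and Col1a1 (0.491-fold) fell. Their part in the results below was not tested. In bulk RNA, fewer cells of a type and less RNA per cell cannot be told apart. In the interferon-response genes 1 library stood apart. Over 10 such genes eGFP supernatant replicate 2 held 768 CPM, against 132 and 210 CPM in the other eGFP libraries. The untreated libraries held 130 to 193 CPM and the IFNβ-exposed libraries 9760 to 11000 CPM. Over genes with enough counts, Ifnb1eGFP supernatant replicates 1 and 2 differed the most within a condition. Their chi-square per degree of freedom was 54, against 5.34 to 23.3 in the other replicate pairs. Tnfrsf1a, for example, was at 184 and 224 CPM in them. This spread enters the tests of that condition.

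Per length, receptors of TNF itself and the ligand Tnfsf12 were the most abundant members. In untreated cells the level in CPM per kb of merged exons was 99.6 ± 3.47 for Tnfrsf1b (SD, n = 3), 53.4 ± 1.67 for Tnfsf12 and 47 ± 0.794 for Tnfrsf1a. Tnfsf13 followed at 6.26 ± 0.606, Tnfrsf14 at 1.79 ± 0.0923, Tnfsf9 at 1.45 ± 0.177, Tnfsf8 at 1.32 ± 0.191, Fas at 0.497 ± 0.0154, Tnfsf13b at 0.366 ± 0.043 and Tnfsf10 at 0.0548 ± 0.00918. Of the neighbors in this order, Tnfsf9 and Tnfsf8 overlapped between libraries and the others did not. With rIFNβ the order changed at both ends. Tnfrsf1b at 68 ± 1.91 and Tnfrsf1a at 67.1 ± 1.76 CPM per kb then overlapped, Tnfsf12 lay below both at 32.7 ± 1.26, and Tnfsf10 stood in the sixth place at 3.35 ± 0.253. The Ifnb1eGFP supernatant gave the same order in its first 6 places, with Tnfrsf1b at 72.4 ± 2.85, Tnfrsf1a at 64.4 ± 6.5 and Tnfsf10 at 3.03 ± 0.243 CPM per kb. Within a condition the median coefficient of variation of the 10 genes lay between 7.42% and 10%, and the widest value, 67.5%, was that of Tnfsf10 in the eGFP supernatant, where replicate 2 was the high library.

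**Figure D1:**
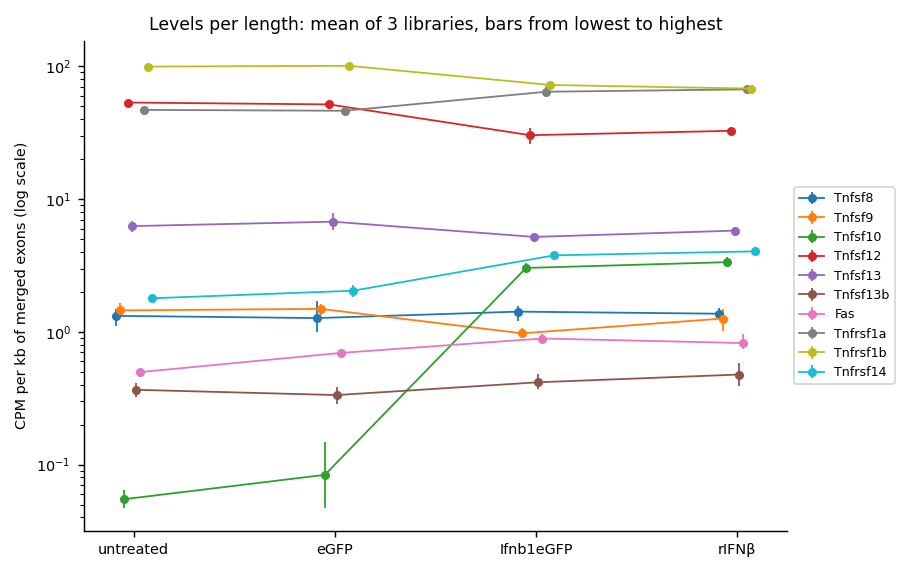
Mean CPM per kb of merged exons on a log axis for the 10 genes in the 4 conditions (3 libraries each), with bars from the lowest to the highest library. Tnfsf10 climbed from the lowest place, 0.0548 in untreated cells, to 3.35 with rIFNβ, and the lines of Tnfrsf1b and Tnfrsf1a met near 68 and 67.1.

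IFNβ exposure changed both ligands and receptors, in both directions. The Ifnb1eGFP supernatant was compared with the eGFP supernatant, which asks what tumor-derived IFNβ adds to the same conditioned medium, and rIFNβ was compared with untreated cells, which asks the same without tumor cell products. These comparisons share no library. By edgeR's quasi-likelihood test, at a Benjamini-Hochberg adjusted p no higher than 0.05 over 15033 genes, 8 of 10 members changed with the Ifnb1eGFP supernatant, 4 higher and 4 lower. Of all genes tested, 55.1% were called in this comparison, 30.1% higher and 25% lower. With rIFNβ, 6 of 10 members changed, 4 higher and 2 lower, against 55.3% of all genes, 30.7% higher and 24.6% lower. The 6 members called with rIFNβ, Tnfsf10, Tnfsf12, Fas, Tnfrsf1a, Tnfrsf1b and Tnfrsf14, were also called with the supernatant and in the same direction. The share of all genes with such agreement was not counted, so it is not shown to be particular to the members. The median log2 fold change of the members was 0.24 and 0.22, beside 0.03 and 0.04 over all genes, and the median absolute value was 0.48 and 0.53, beside 0.37 and 0.37. Changes were mostly small. A log2 fold change of 1 or more in size, still with an adjusted p up to 0.05, was found for Tnfsf10 with the supernatant and for Tnfsf10 and Tnfrsf14 with rIFNβ, against 15.4% and 16% of all genes. The stricter pair of thresholds that the study used, 2 on the log2 scale and 0.01 for the adjusted p, was met in both comparisons by Tnfsf10 alone, against 5.39% and 5.77% of all genes. The libraries of the compared conditions did not overlap for 8 and 6 members, against 59% and 66.1% of all genes.

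**Figure D2:**
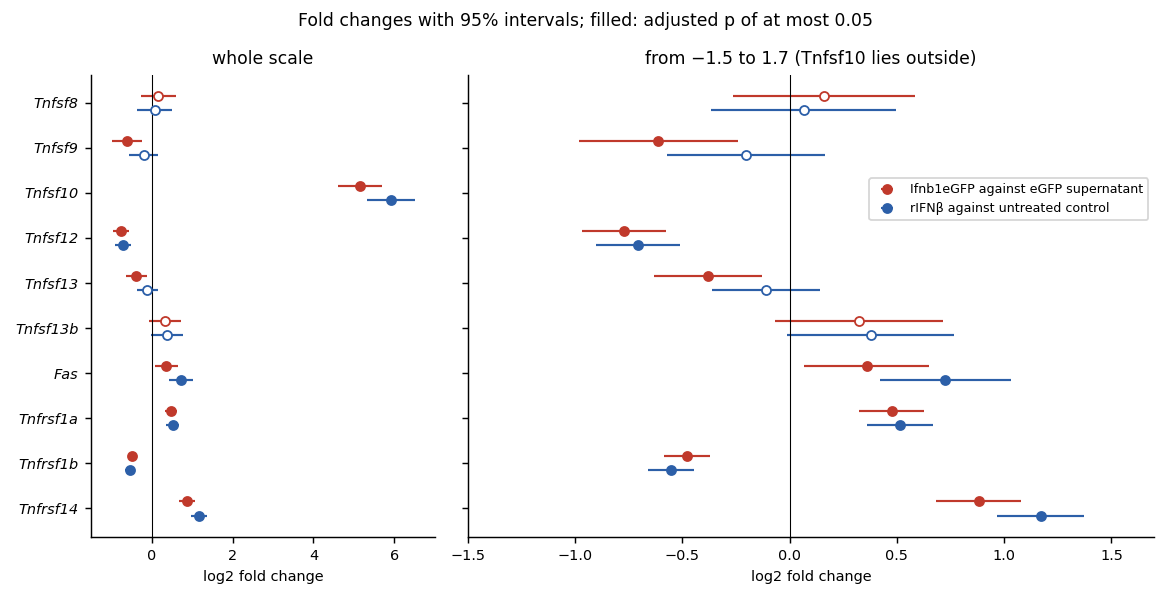
Log2 fold changes of the 10 genes with 95% intervals for the Ifnb1eGFP against the eGFP supernatant (red) and rIFNβ against untreated control (blue), on the whole scale (left) and from -1.5 to 1.7 (right). Filled points passed an adjusted p of at most 0.05, and Tnfsf10, at 5.16 and 5.92, lies far to the right of the other 9 genes.

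Among the ligands, Tnfsf10 had the largest change of the 10 members. Tnfsf10 (TRAIL; GRCm39 chr3:27371033-27396576, plus strand) triggers apoptosis through death receptors, and it is one of the genes that the study singled out in these same libraries. It was at 0.254, 0.351 and 0.284 CPM in the untreated libraries, 0.253, 0.804 and 0.301 CPM with the eGFP supernatant, 17.8, 15.2 and 16.2 CPM with the Ifnb1eGFP supernatant and 19.7, 17.4 and 17.3 CPM with rIFNβ. All 6 exposed libraries lay above all 6 others, and the high unexposed library was eGFP replicate 2. This was a log2 fold change of 5.16 ± 0.247 (SE; 35.7-fold, adjusted p = 1.56e-08) with the Ifnb1eGFP supernatant and 5.92 ± 0.269 (60.5-fold, adjusted p = 8.53e-09) with rIFNβ. Without eGFP replicate 2 the former became 5.87. The lowest library rested on 8 counts, so the unexposed levels were measured from few reads.

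Tnfsf12 (TWEAK; chr11:69577076-69586928, minus strand), the ligand of the Fn14 receptor encoded by Tnfrsf12a, was the most abundant of the 6 ligands per length in unexposed cells. Its level was 96.5, 101 and 103 CPM in untreated cells and 101, 101 and 89 CPM with the eGFP supernatant. It was 48.4, 64.3 and 57.3 CPM with the Ifnb1eGFP supernatant and 61.1, 63.6 and 58.8 CPM with rIFNβ. Every exposed library lay below every unexposed library. The fitted log2 change was -0.77 ± 0.0886 (0.585-fold, adjusted p = 1.8e-05) with the supernatant and -0.71 ± 0.0886 (0.612-fold, adjusted p = 3.54e-05) with rIFNβ.

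Tnfsf13 (APRIL; chr11:69573403-69576610, minus strand), which binds the B lineage receptors TACI and BCMA, lies next to Tnfsf12 on the same strand. It was at 11.9, 10.8 and 13.1 CPM in untreated cells, 11.2, 12.5 and 14.9 CPM with the eGFP supernatant, 10.4, 8.99 and 10.3 CPM with the Ifnb1eGFP supernatant and 10, 11.4 and 11.7 CPM with rIFNβ. The libraries of the supernatant conditions did not overlap, whereas those with rIFNβ overlapped the untreated ones. Its log2 fold change was -0.38 ± 0.114 (adjusted p = 0.0142) with the supernatant, a call that was lost without eGFP replicate 3 (adjusted p = 0.0634), and -0.11 ± 0.115 (adjusted p = 0.443) with rIFNβ. Both genes share exons with the read-through gene Tnfsfm13, which covers 52.4% of the Tnfsf12 and 65.7% of the Tnfsf13 exon bases, so the split of reads among them was an estimate. Tnfsfm13 fell as well, by 0.75 and 0.80 on the log2 scale. Summed over the 3 genes, the locus fell by 0.73 ± 0.073 (adjusted p = 5.72e-06) with the supernatant and by 0.69 ± 0.073 (adjusted p = 9.32e-06) with rIFNβ. Tnfsf13 held between 6.32% and 9.4% of the locus reads in the unexposed libraries and between 8.08% and 11.7% in the exposed ones.

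Tnfsf9 (4-1BBL; chr17:57412298-57414769, plus strand), the ligand of the T cell costimulatory receptor 4-1BB, was low in all libraries. It was at 1.84, 1.76 and 2.2 CPM in untreated cells, 1.79, 2.17 and 1.98 CPM with the eGFP supernatant, 1.21, 1.42 and 1.26 CPM with the Ifnb1eGFP supernatant and 1.72, 1.98 and 1.34 CPM with rIFNβ. The supernatant conditions did not overlap, and the rIFNβ libraries overlapped the untreated ones. On the log2 scale Tnfsf9 changed by -0.61 ± 0.168 (adjusted p = 0.00917) with the supernatant and the rIFNβ value was -0.20 ± 0.167 (adjusted p = 0.328). The noncoding gene Gm11110 overlaps 14.4% of the Tnfsf9 exon bases on the opposite strand, and the strand setting used for counting is not given in the sources used here, so reads of the pair cannot be told apart there. Gm11110 fell by 1.59 and 0.94 on the log2 scale, and Tnfsf9 with Gm11110 summed fell by 0.96 (adjusted p = 5.65e-05) and 0.46 (adjusted p = 0.00884).

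Tnfsf8 (CD30L; chr4:63749542-63779592, minus strand), the ligand of CD30, was at 5.15, 5.68 and 4.23 CPM in untreated cells, 3.79, 6.55 and 4.24 CPM with the eGFP supernatant, 5.71, 4.62 and 5.97 CPM with the Ifnb1eGFP supernatant and 4.9, 5.04 and 5.79 CPM with rIFNβ. The conditions overlapped, and the widest spread was that of the eGFP supernatant. Fitted log2 differences were 0.16 (95% interval -0.265 to 0.586, adjusted p = 0.51) with the supernatant and 0.07 (-0.365 to 0.496, adjusted p = 0.802) with rIFNβ. Without eGFP replicate 2 the first became 0.44 with an adjusted p of 0.0395.

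Tnfsf13b (BAFF; chr8:10056467-10089072, plus strand), a survival factor for B cells that myeloid cells are known to make, was at 2.51, 2.22 and 2.82 CPM in untreated cells, 1.97, 2.27 and 2.64 CPM with the eGFP supernatant, 2.73, 2.56 and 3.3 CPM with the Ifnb1eGFP supernatant and 3.14, 2.68 and 4.02 CPM with rIFNβ. The highest values were in the exposed libraries, but the conditions overlapped. Neither the log2 difference of 0.32 with the supernatant (95% interval -0.0672 to 0.714, adjusted p = 0.146) nor that of 0.38 with rIFNβ (-0.0132 to 0.767, adjusted p = 0.0935) passed the test. Without rIFNβ replicate 2 the latter was 0.51 with an adjusted p of 0.039.

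**Figure D3:**
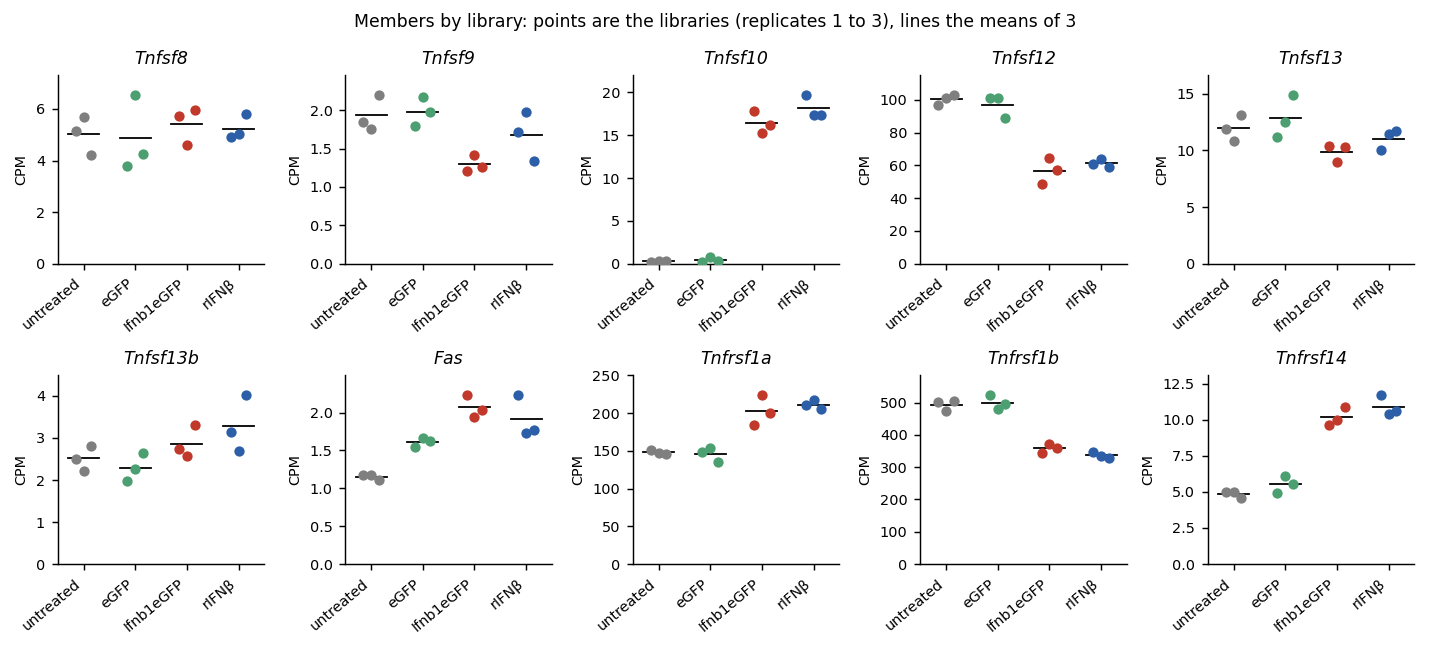
CPM of each of the 10 genes in the 12 libraries, on a linear axis from 0, with points for libraries and lines for the means of 3. The exposed libraries of Tnfsf10 (15.2 to 19.7 CPM) and Tnfrsf14 (9.66 to 11.7 CPM) lie above all unexposed ones, those of Tnfsf12 (48.4 to 64.3 CPM) and Tnfrsf1b (327 to 372 CPM) below all unexposed ones, and those of Tnfsf8 overlap.

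Among the receptors, the genes for both TNF receptors changed in opposite directions. Tnfrsf1a (TNF receptor 1; chr6:125325566-125339632, plus strand) has a death domain and is expressed by most cell types. It was at 151, 147 and 146 CPM in untreated cells, 148, 154 and 135 CPM with the eGFP supernatant, 184, 224 and 200 CPM with the Ifnb1eGFP supernatant and 211, 217 and 206 CPM with rIFNβ. Every exposed library lay above every unexposed one. Tnfrsf1a rose by 0.48 ± 0.0693 on the log2 scale (1.39-fold, adjusted p = 0.000121) with the supernatant and 0.51 ± 0.0694 (1.43-fold, adjusted p = 6.56e-05) with rIFNβ.

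Tnfrsf1b (TNF receptor 2; chr4:144938938-144973477, minus strand) has no death domain, signals through TRAF2 and is largely restricted to immune and endothelial cells. Its level was 501, 473 and 505 CPM in untreated cells and 523, 479 and 497 CPM with the eGFP supernatant. It was 343, 372 and 360 CPM with the Ifnb1eGFP supernatant and 346, 336 and 327 CPM with rIFNβ. Every exposed library lay below every unexposed one. Tnfrsf1b changed by -0.48 ± 0.0488 on the log2 scale (0.717-fold, adjusted p = 6.77e-06) with the supernatant and -0.55 ± 0.0489 (0.682-fold, adjusted p = 2.01e-06) with rIFNβ.

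The ratio of Tnfrsf1b to Tnfrsf1a counts within a library does not depend on the scaling of libraries. It was 3.33 ± 0.115 in untreated cells (SD, n = 3) and 3.44 ± 0.292 with the eGFP supernatant, and 1.77 ± 0.109 with the Ifnb1eGFP supernatant and 1.59 ± 0.0427 with rIFNβ. The lowest unexposed library, 3.11, lay above the highest exposed one, 1.87. Averaged over both media, the mean log2 ratio fell by 1.01 with IFNβ.

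**Figure D4:**
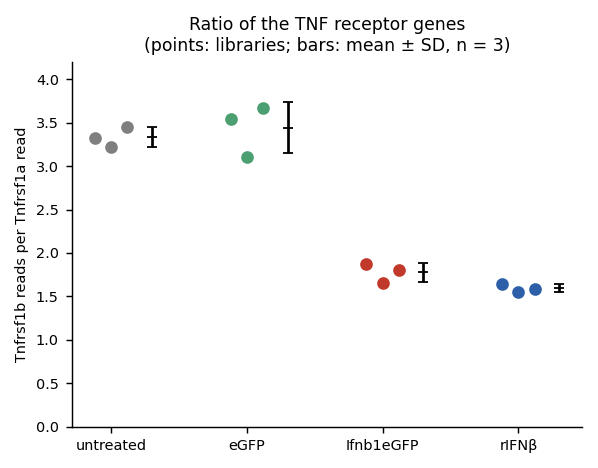
Tnfrsf1b counts per Tnfrsf1a count in the 12 libraries, with the mean ± SD of 3 libraries beside each condition. The 6 IFNβ-exposed libraries sit between 1.55 and 1.87 and the 6 others between 3.11 and 3.67.

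Tnfrsf14 (HVEM; chr4:155005126-155013020, minus strand) is a receptor for LIGHT and a partner of BTLA, and it rose the most among the 4 receptors. It was at 4.99, 5.01 and 4.57 CPM in untreated cells, 4.93, 6.09 and 5.57 CPM with the eGFP supernatant, 9.66, 10 and 10.9 CPM with the Ifnb1eGFP supernatant and 11.7, 10.4 and 10.6 CPM with rIFNβ. Every exposed library lay above every unexposed one, and eGFP replicate 2 was the highest of the unexposed. It rose by 0.88 ± 0.0909 on the log2 scale (1.84-fold, adjusted p = 7.57e-06) with the supernatant and 1.17 ± 0.0927 (2.25-fold, adjusted p = 7.84e-07) with rIFNβ. The difference of these effects was -0.29 ± 0.129 (adjusted p = 0.926).

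Fas (CD95; chr19:34268001-34305173, plus strand), the death receptor for Fas ligand, was at 1.18, 1.17 and 1.11 CPM in untreated cells, 1.54, 1.66 and 1.63 CPM with the eGFP supernatant, 2.23, 1.94 and 2.04 CPM with the Ifnb1eGFP supernatant and 2.23, 1.73 and 1.77 CPM with rIFNβ. The eGFP supernatant lay between the untreated and the exposed libraries without overlapping either. The log2 fold change was 0.72 ± 0.138 (1.65-fold, adjusted p = 0.000901) with rIFNβ and 0.36 ± 0.132 (1.28-fold, adjusted p = 0.0375) with the Ifnb1eGFP supernatant. The latter call was lost with DESeq2 (adjusted p = 0.168), with another scaling (0.0667), without the filter on low counts (0.227), with only the compared libraries in the fit (0.0701) and in 5 of 6 fits that left out 1 library. Fas rested on 37 to 94 counts per library.

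No member passed the test for a difference by the source of IFNβ or by the supernatant itself. Between the Ifnb1eGFP supernatant and rIFNβ, which differ in the tumor cell medium and in any Dox left in it, 0 of 10 members were called by edgeR, against 0.16% of all genes. The libraries overlapped for all 10, against 12.8% of all genes without overlap, and 1 member had an unadjusted p under 0.05, against 8.57% of all genes. That gene was Tnfsf9, lower with the supernatant by 0.38 on the log2 scale (95% interval -0.749 to -0.00161, adjusted p = 0.581). For the other 9 the differences ranged from -0.19 for Tnfsf13b to 0.12 for Fas, and that of Tnfsf10 was -0.15 with an interval from -0.524 to 0.228.

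Between the eGFP supernatant and untreated control, 0 of 10 members were called, against 0.299% of all genes. Fas, higher by 0.48 ± 0.139 (95% interval 0.176 to 0.788, adjusted p = 0.278), was the 1 member with an unadjusted p under 0.05, against 8% of all genes, and the 1 without overlap, against 15.5%. The value for Tnfsf10 was 0.61 (interval -0.277 to 1.51) and became -0.10 without eGFP replicate 2. This comparison shares its libraries with those above, so a low eGFP or untreated value enters both.

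Averaged over both IFNβ states, the supernatant changed 0 of 10 members, against 0.905% of all genes, and Fas was the 1 member with an unadjusted p under 0.05, against 11.4% (0.30 ± 0.0956, adjusted p = 0.236). For the difference between the IFNβ effects with and without supernatant, 0 of 10 members and 0% of all genes were called by edgeR. In this last comparison 1 member, Tnfrsf14, and 4.4% of all genes had an unadjusted p under 0.05. DESeq2 also called 0 members in each of these 4 comparisons. The intervals of the difference remained wide for the low genes, from -1.73 to 0.205 for Tnfsf10, from -0.928 to 0.114 for Tnfsf9 and from -0.783 to 0.0578 for Fas, and narrow for Tnfrsf1b, from -0.0799 to 0.223.

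The partners of the members were measured to unequal depth in these cells. Fasl, the ligand of Fas, had 3 counts over all 12 libraries, and Lta, a ligand of both TNF receptors, had 54. Tnf itself was between 7.91 and 25.9 CPM, and its log2 fold changes were 0.53 (adjusted p = 0.262) with the Ifnb1eGFP supernatant and 0.47 (adjusted p = 0.322) with rIFNβ. With 1 library left out they ranged from 0.27 to 0.97 and from 0.15 to 0.83, and none of these passed. Tnfrsf10b, the mouse death receptor for Tnfsf10, was between 4.75 and 5.25 CPM with the eGFP supernatant and between 3.17 and 3.51 CPM with the Ifnb1eGFP supernatant, and it fell with IFNβ, with log2 fold changes of -0.57 ± 0.0978 (adjusted p = 0.000444) and, with rIFNβ, -0.56 ± 0.0973 (adjusted p = 0.000464). In unexposed cells it lay above Tnfsf10 per length, at 1 CPM per kb against 0.0548 in untreated cells, and with rIFNβ below it, at 0.681 against 3.35.

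Tnfrsf12a, the receptor of Tnfsf12, stayed between 5.12 and 7.09 CPM, and its log2 fold changes of -0.11 and 0.07 did not pass the test. Tnfrsf13b (TACI), a receptor for Tnfsf13 and Tnfsf13b, was between 36.3 and 45.3 CPM and rose by 0.20 ± 0.0575 (adjusted p = 0.0131) with the supernatant, whereas 0.14 with rIFNβ did not pass (adjusted p = 0.0557). Without the filter on low counts the former missed the threshold (adjusted p = 0.0658), and the latter passed it with library totals as the scaling (0.0317) and without rIFNβ replicate 1 (0.038). The other receptors of this pair of ligands, Tnfrsf13c (BAFF receptor) and Tnfrsf17 (BCMA), had 6 and 23 counts in all. Tnfrsf9 (4-1BB), the receptor of Tnfsf9, had 62 counts. Tnfrsf8 (CD30), the receptor of Tnfsf8, fell by 1.64 ± 0.282 (adjusted p = 0.00045) and 1.72 ± 0.288 (adjusted p = 0.00034). It rested on 14 to 33 counts in the exposed libraries. Tnfsf14 (LIGHT), a ligand of Tnfrsf14, was at 0.455, 0.414 and 0.502 CPM with the eGFP supernatant and 0.961, 1.39 and 1.3 CPM with the Ifnb1eGFP supernatant. In untreated cells Tnfsf14 was lower still, at 0.191, 0.146 and 0.308 CPM on 6, 5 and 13 counts. With rIFNβ it was at 1.1, 1.48 and 1.14 CPM. Its log2 fold change was 1.41 ± 0.249 (adjusted p = 0.000527), and 2.48 ± 0.279 (adjusted p = 1.48e-05) with rIFNβ, so this ligand and its receptor were both higher with IFNβ.

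Of 37 other ligands and receptors of the superfamily, 24 passed the filter on low counts. The 24 include the read-through gene Tnfsfm13, which shares exons with Tnfsf12 and Tnfsf13 and so is not independent of these members. With the Ifnb1eGFP supernatant 17 of the 24 changed, 7 higher and 10 lower, and with rIFNβ 13 changed, 6 higher and 7 lower, beside the 55.1% and 55.3% of all genes given above. Their median log2 fold change was -0.01 and 0.08. Besides Tnfrsf8 and Tnfsf14, the 6 with the largest change among those called with the supernatant were Tnfrsf11b (osteoprotegerin, a soluble decoy receptor; 2.00 ± 0.433), Tnfrsf18 (GITR; -1.83 ± 0.258), Tnfsf15 (TL1A; 1.60 ± 0.442) and Tnfsf18 (the GITR ligand; 1.60 ± 0.222). With rIFNβ their log2 fold changes were 1.66, -0.52, 1.02 and 1.60, of which those of Tnfrsf18 (adjusted p = 0.179) and Tnfsf15 (adjusted p = 0.0713) did not pass the test. These 4 genes stayed below 1.2 CPM in every library. Other genes of the list changed by less but at higher levels, in both directions. Tnfrsf21 had a mean of 75.4 CPM with the eGFP and 38.6 CPM with the Ifnb1eGFP supernatant. In the same order Tnfrsf11a was at 120 and 157 CPM, and Cd40 at 2.85 and 5.43 CPM. For each of these genes no exposed library overlapped an unexposed one. Tnfrsf23, a decoy receptor for Tnfsf10, and its relative Tnfrsf26 were higher with supernatant averaged over both IFNβ states, by 0.21 ± 0.0334 (adjusted p = 0.0149) and 0.25 ± 0.0448 (adjusted p = 0.0287). With IFNβ Tnfrsf23 was lower, by -0.22 (adjusted p = 0.00205) with the Ifnb1eGFP supernatant and -0.18 (adjusted p = 0.00697) with rIFNβ. The rIFNβ call was lost without the filter on low counts (adjusted p = 0.0807). For Tnfrsf26 the values were -0.18 (adjusted p = 0.0287), a call lost in several alternative fits, and -0.09 (adjusted p = 0.234). Tnfrsf22, also of this list, fell more than either. Its mean was 6.82 CPM with the eGFP and 4.34 CPM with the Ifnb1eGFP supernatant. It was 6.75 CPM in untreated cells and 3.97 CPM with rIFNβ, and every exposed library lay below every unexposed one.

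All 37 genes of TNF receptor signaling passed the filter. With the Ifnb1eGFP supernatant 24 changed, 20 higher and 4 lower, and with rIFNβ 27 changed, 23 higher and 4 lower. Of all genes, 30.1% were higher and 25% lower in the former comparison, and 30.7% and 24.6% in the latter. Their median log2 fold change was 0.27 and 0.37, beside 0.03 and 0.04 over all genes. The 6 with the largest change with the supernatant were the death domain-associated gene Daxx (2.18 ± 0.158), the necroptosis effector Mlkl (1.88 ± 0.0803), Rnf31, the catalytic subunit of the linear ubiquitin ligase (1.40 ± 0.124), the adaptor Traf1 (1.39 ± 0.254), the initiator caspase gene Casp8 (1.04 ± 0.0464) and Tnfaip3, which encodes the NF-κB inhibitor A20 (-1.59 ± 0.0778). All 6 were called in the same direction with rIFNβ, from -1.34 for Tnfaip3 to 2.59 for Daxx. Tnfaip3 was at 95.7, 105 and 109 CPM with the eGFP supernatant against 32.5, 34.5 and 35.4 CPM with the Ifnb1eGFP supernatant, and averaged over both IFNβ states it was higher with supernatant by 0.27 ± 0.0542 (adjusted p = 0.0475). Of 36 fits of Tnfaip3, Tnfrsf23 and Tnfrsf26 for the averaged supernatant with 1 library left out, 25 missed the threshold. The genes that rose held both death-promoting members, such as Fadd (0.43) and Bid (0.61), and inhibitors of cell death, such as Cflar (0.84), Birc2 (0.98) and Xiap (0.44). The 3 others that fell with the supernatant, Traf5 (-0.85), Ikbkg (-0.54) and Adam17 (-0.19), encode an adaptor, the regulatory subunit of the IκB kinase and the TNF-shedding protease.

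**Figure D5:**
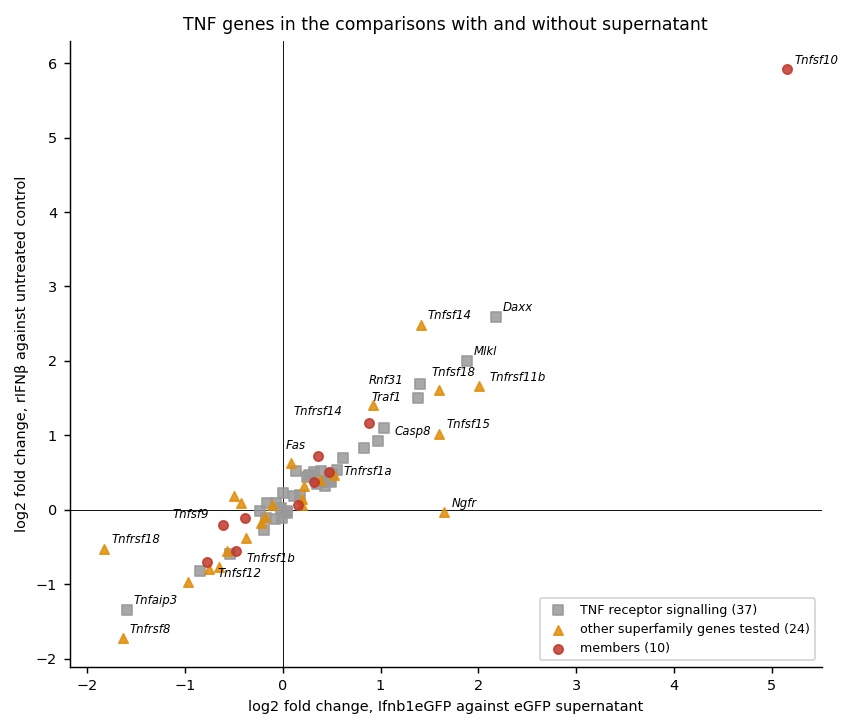
Log2 fold changes with the Ifnb1eGFP against the eGFP supernatant (horizontal) and with rIFNβ against untreated control (vertical) for the 10 members, 24 other superfamily genes and 37 TNF receptor signaling genes. Tnfsf10 lies apart at 5.16 and 5.92, and Ngfr, at 1.65 and -0.03 and not called in either comparison, lies farthest from the line of equal change.

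The genes whose log2 CPM followed a member most closely over the 12 libraries were Slfn9 (Pearson r = 0.999) and Slfn3 (0.998) for Tnfsf10, Sik3 (0.994) and Zbtb5 (0.993) for Tnfrsf14, Tcof1 (0.997) and Dennd1a (0.996) for Tnfrsf1a, Zbtb18 (0.994) and Synj2 (0.993) for Tnfrsf1b, and Prelid1 (0.997) and Tspan17 (0.996) for Tnfsf12. For the other 5 members the closest genes were less alike, Gm19439 (0.942) and Nfia (0.941) for Fas, Col27a1 (0.937) for Tnfsf9, a gene without a symbol (0.932) and Phka2 (0.916) for Tnfsf13b, H2bc21 (0.902) for Tnfsf13 and Gm30531 (0.784) for Tnfsf8. These are descriptions over libraries that fall into an exposed and an unexposed set, and each r is in large part that contrast.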

How the data were processed

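The authors sequenced 12 stranded total RNA libraries (3 per condition) and, per the labels, counted reads with RSEM 1.3.3 against a genome named as both GRCm39 and mm10. The deposited matrix holds unnormalized expected counts for 56748 Ensembl mouse genes, and 12% of its values are not whole. The annotation version and the strand setting are not given in the sources used here. Gene names and positions were taken from GENCODE M39 (GRCm39), which names 56017 of the genes. Counts were rounded, genes with low counts were removed by filterByExpr, and 1 model over all libraries was fitted with edgeR 4.0.16 (R 4.3.3), TMM scaling, glmQLFit and glmQLFTest, with Benjamini-Hochberg adjustment over 15033 genes. The method was also run on simulated counts, in which far fewer genes changed than were called here. That run is therefore not support for these results. CPM uses TMM-scaled totals. A count of 3 corresponds to at most 0.0954 CPM. DESeq2 1.42.0, other scalings, no filter, the replicate block, other thresholds, subsets and left-out libraries were the alternatives. The summed loci were added after seeing the data. The ratio of Tnfrsf1b to Tnfrsf1a counts was also not among the planned analyses. Members and lists were chosen with earlier results of these data known. Named list genes were the 6 largest called changes with the Ifnb1eGFP supernatant in each list, and receptor or ligand partners. Up to 3 called genes were also named in each other comparison except rIFNβ against untreated control. The 2 most alike genes per member were named as well. In addition, the called genes Fadd, Bid, Cflar, Birc2, Xiap, Traf5, Ikbkg and Adam17 were named after their values were seen. The same holds for Ngfr, Tnfrsf11a, Tnfrsf21, Tnfrsf22 and Cd40. Replicates are stated to be biological, and p-values measure the spread among them.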

Additional observations from a re-analysis of the deposited data

How the results depend on the processing

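With a log2 fold change of 1 or more in size required, 6 and 5 other superfamily genes were called with the Ifnb1eGFP supernatant and with rIFNβ, and 6 and 6 signaling genes, beside 1 and 2 members. With the thresholds of the study the numbers were 1 and 1 other superfamily genes, 1 and 2 signaling genes, and 1 and 1 members. The other superfamily and signaling lists held 24 and 37 tested genes. Of all genes, 15.4% and 16% met the threshold of 1, and 5.39% and 5.77% met those of the study. Under both, 0 genes of either list were called for the supernatant averaged over both IFNβ states. With the remaining tools, scalings, filters and fits, 7 to 9 members were called with the Ifnb1eGFP supernatant and 6 to 7 with rIFNβ, and with 1 library left out 6 to 8 and 6 to 7. Between the eGFP supernatant and untreated control, DESeq2 called 2 other superfamily genes and 1 signaling gene, and the fit without a filter 1 signaling gene, against 0 and 0 in edgeR. With library totals as the scaling, 1 other superfamily gene and 0 signaling genes were called for the averaged supernatant. With 1 library left out these counts ran from 0 to 2 and from 0 to 3. Between the Ifnb1eGFP supernatant and rIFNβ they ran from 0 to 2 and from 0 to 5, and the highest values came without Ifnb1eGFP replicate 2. The cause was not tested. No value that passed the test changed sign in the alternatives run for it, whereas with rIFNβ the values of Tnfrsf12a and Tnfsf8, which did not pass, ran from -0.06 to 0.15 and from -0.05 to 0.16 with 1 library left out. The mean CPM of each member moved by less than 1 SD when library totals replaced TMM. Fas with the Ifnb1eGFP supernatant had adjusted p-values from 0.0404 to 0.171 with 1 library left out and from 0.0361 to 0.227 otherwise. Depth limits Tnfsf10 in unexposed cells, Fas and Tnfsf9, which had as few as 8, 37 and 48 counts in a library.

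Replicate numbers were not taken to pair the libraries. Libraries of the same number deviated together with a mean r of 0.148 (0.0582 to 0.252, above 0.1 in 13 of 18 pairs), those of different numbers with a mean of -0.0742, and 12 of 12 libraries correlated best with their own number, which is a hint from the data and not the design. With the replicate number as a block, 9 members were called with the Ifnb1eGFP supernatant and 7 with rIFNβ, through Tnfsf13b (adjusted p = 0.0343 and 0.0171), and 1 gene of each list for the eGFP supernatant against untreated control. Tnf was then called in both IFNβ comparisons (adjusted p = 0.031 and 0.0414) and Tnfrsf13b with rIFNβ (0.03).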
